A study of Homo sapiens with 18 samples.

Results

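The genes described are 34 cholesterol and fatty acid synthesis genes of human prostate cancer cells, chosen by symbol from the 60675 Ensembl genes that the count files list. They were kept as a sterol arm of 20 genes, a fatty acid arm of 11 genes and 3 regulators shared by both arms. RNA Seq counts were available for 18 libraries in 6 groups of 3. LNCaP is an androgen-responsive line from a lymph node metastasis, and C4-2 is its castration-resistant derivative. In each line, cells carried scrambled, non-targeting siRNA (siScr) with vehicle, siScr with the synthetic androgen R1881 (1 nM, 72 h), or siRNA SMART pools against both KDM1A and KDM7A (dual knockdown) with R1881 (1 nM, 72 h). KDM1A and KDM7A encode histone lysine demethylases. All groups were grown without phenol red in serum depleted of hormones, and all were transfected. In the study's methods the vehicle is DMSO where RNA Seq is described and ethanol where R1881 culture is described. Each line is 1 line grown in culture, no library carried a knockdown of either demethylase alone, and dual knockdown libraries with vehicle were not analysed here.

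Cholesterol is built from acetyl-CoA through the mevalonate pathway to squalene, which is closed into lanosterol and trimmed to cholesterol. Fatty acids are built by the carboxylase and synthase enzymes from the same acetyl-CoA and then elongated, desaturated and activated. Both arms are classical targets of the SREBP transcription factors, which the escort protein SCAP carries from the endoplasmic reticulum for cleavage and which the INSIG proteins hold back when sterols are plentiful. Prostate epithelium and prostate cancer cells are known for androgen-stimulated lipid synthesis.

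Counts assigned to genes summed to between 3182604 and 20154243 per library (median 18117641). The third C4-2 vehicle library was the lowest, and the next lowest library held 10485096. The labels of the 3 C4-2 vehicle libraries conflict, with C4-2 in their titles and LNCaP as the cell line. The titles were followed, and over 4443 genes that differ between the lines each correlated more closely with C4-2 (r 0.912 to 0.939) than with LNCaP (r 0.635 to 0.641). All 8 luminal prostate markers were at 1 CPM (the count scaled to the library's size) or more in every library, 3 basal markers summed to at most 1.60 CPM, 3 leukocyte markers to at most 3.52 CPM, 3 endothelial markers to at most 20.8 CPM and 5 fibroblast markers to at most 39.3 CPM. KDM1A fell with the dual knockdown from 108 ± 4.45 to 51.6 ± 2.86 CPM in LNCaP and from 142 ± 3.22 to 16.4 ± 3.03 CPM in C4-2 (mean ± SD, n = 3). KDM7A fell from 59.7 ± 5.02 to 30.9 ± 2.93 CPM and from 121 ± 10.0 to 21.2 ± 2.88 CPM, so both targets were lowered further in C4-2. The labels do not say whether replicates were separate cultures, and p-values measure only the spread between these libraries. In bulk RNA, fewer cells of a type and less RNA per cell cannot be told apart.

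Short stretches of the gene starts are shown because the SREBP proteins bind DNA beside the factor NF-Y, whose element is CCAAT. A link between these letters and the responses to R1881 was not tested. RefSeq (GRCh38.p14) gave starts for 30 of the 34 genes, and SQLE, ACAT2, FASN and FDFT1 were not searched. Each stretch held 250 bases before to 50 bases after the start, and both strands were searched. CCAAT was present at a start of 22 of the 30 genes (73.3%), 15 of 17 in the sterol arm and 6 of 10 in the fatty acid arm, against 39.7% of 27305 genes in the same table. The 8 genes without it were PMVK, CYP51A1, ELOVL6, ELOVL7, FADS1, LPIN1, SREBF1 and SCAP. The GC box GGGCGG was present in 28 of 30 genes (93.3%), against 48.3% of all genes. The shares of all genes were not limited to genes expressed in these cells. An excess over them was therefore not shown to be particular to lipid genes. The SREBP-element-like TCACNCCAC was found only in SREBF2 (1 of 30, against 1.39% of all genes), the E-box CACGTG in ELOVL5, INSIG1, LSS, SC5D and SCAP (5 of 30, against 8.78%), and the full palindromic androgen response element in none of the 30 and in 1 of all 27305 genes. No motif searched is contained in another. A match is a run of letters and was not tested for binding. Each window below reads 5′ to 3′ on the strand of the gene, with CCAAT or its complement ATTGG in capitals.
HMGCS1 (chr5:43313495-43313524, minus strand): ctaccggccgcgATTGGctgtgggagccac
IDI1 (chr10:1048956-1048985, minus strand): ctggcgcgagcgATTGGctgcgcggcccgg
MSMO1 (chr4:165327472-165327501, plus strand): gcggtgccgaccATTGGctggctctgcagg
INSIG1 (chr7:155297696-155297725, plus strand): cgccggcctcccATTGGttgcggccgcctc
SCD (chr10:100347035-100347064, plus strand): aattcccttcggCCAATgacgagccggagt
ELOVL5 (chr6:53349001-53349030, minus strand): cttcgggtcccgATTGGctggccgcgccat
ACSL3 (chr2:222860949-222860978, plus strand): accgctcgcgggCCAATgggtggcagcctc
TM7SF2 (chr11:65111786-65111815, plus strand): ccccgagcgccgATTGGctggtgtgctggg

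TM7SF2 is shown because it holds the same letters and did not rise with R1881 in either line. The next windows show the SREBP-element-like run of SREBF2, which encodes the SREBP2 protein itself, and the E-box of INSIG1 and of SCAP, both in capitals.
SREBF2 (chr22:41832962-41832991, plus strand): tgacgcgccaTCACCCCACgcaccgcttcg
INSIG1 (chr7:155297811-155297840, plus strand): gccgggcaggctCACGTGatgcgggccccg
SCAP (chr3:47475982-47476011, minus strand): cgccgctgggcgCACGTGcggagggcggcg

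Levels were compared between genes per length, as FPKM, the CPM divided by the exon length in kilobases that the files give. In LNCaP with vehicle the highest were SCD, the stearoyl-CoA desaturase, at 201 ± 3.92 FPKM, and FASN, the fatty acid synthase, at 176 ± 21.6 FPKM (mean ± SD, n = 3). No FASN library reached the lowest SCD library, and the means differed by little more than the SD of FASN. The lowest was ELOVL7, an elongase of very long chains, at 1.81 ± 0.352 FPKM. With R1881 the order in LNCaP was FASN (720.4 ± 93.3 FPKM), SCD (656 ± 40.2 FPKM), the elongase ELOVL5 (518 ± 42.1 FPKM) and the acyl-CoA synthetase ACSL3 (228 ± 17.8 FPKM), and ELOVL7 stood at 42.9 ± 0.126 FPKM. In C4-2 with R1881 ELOVL5 (386 ± 27.2 FPKM), SCD (366 ± 25.3 FPKM), FASN (345 ± 35.2 FPKM) and ACSL3 (297 ± 16.2 FPKM) led, and ELOVL5 and SCD did not differ beyond their spread. In the sterol arm the highest level per length was that of FDFT1 in LNCaP with R1881 (194 ± 13.6 FPKM) and of INSIG1 in C4-2 with R1881 (182 ± 21.9 FPKM). The level of CYP51A1 is uncertain, because 82.2% of its exon bases are shared with LRRD1 or an antisense gene, and that of ACAT2 because 52.3% are shared with genes of the opposite strand, while read pairs on more than 1 gene were not counted. IDI1, FDPS, CYP51A1, HSD17B7, SCD and ACSL3 have named pseudogenes that could take a part of their reads.

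The summed level of each arm, as a percentage of the scaled library, gives the size of the whole pathway. The fatty acid arm took 0.512%, 0.486% and 0.5% of the 3 LNCaP vehicle libraries and 1.83%, 1.72% and 1.81% with R1881. In C4-2 the same sum was 0.665%, 0.738% and 0.66% with vehicle and 1.29%, 1.38% and 1.34% with R1881. The arm thus took the larger share of the library in C4-2 without androgen and in LNCaP with androgen, and its libraries did not overlap between the lines in either state. The sterol arm took 0.161%, 0.157% and 0.163% in LNCaP with vehicle and 0.379%, 0.388% and 0.411% with R1881. In C4-2 it took 0.185%, 0.19% and 0.204% with vehicle and 0.277%, 0.299% and 0.265% with R1881. With the dual knockdown the sterol sum was 0.422%, 0.402% and 0.388% in LNCaP and 0.343%, 0.314% and 0.339% in C4-2, where every knockdown library lay above every siScr library. The fatty acid sum with the dual knockdown was 1.68%, 1.84% and 1.77% in LNCaP and 1.45%, 1.35% and 1.34% in C4-2, overlapping the siScr libraries in both lines. A few abundant genes weigh most in such sums, and the sums were not tested.

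**Figure D1:**
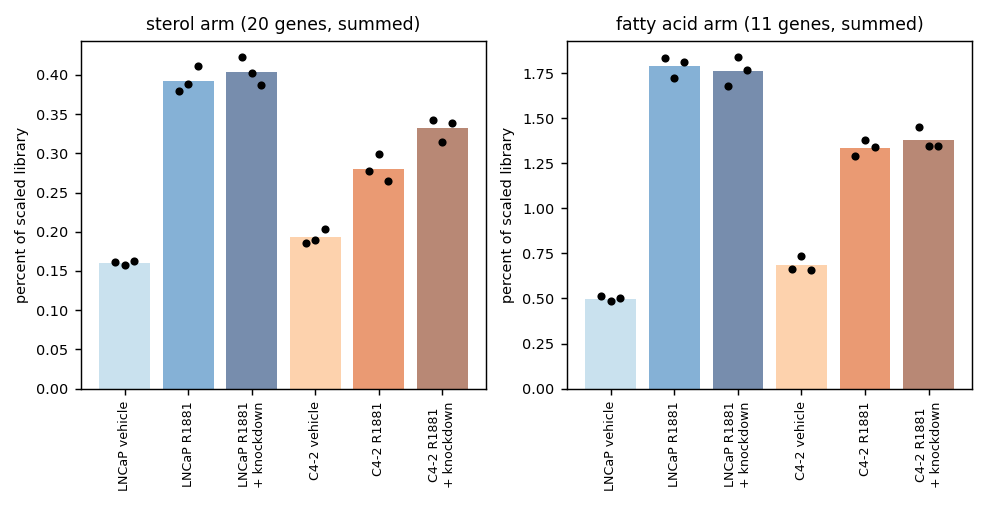
Summed level of the 20 sterol arm genes (left) and the 11 fatty acid arm genes (right) in each library, as a percentage of the scaled library. Points are libraries and bars are means of 3, so that the rise with R1881 in both lines and its larger size in LNCaP can be read directly.

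R1881 was compared with vehicle in siScr cells to ask which of these genes androgen moves in LNCaP. A log2FC is the log2 fold change of edgeR's fit, and a gene passed at an adjusted p under 0.05 over all genes tested. Where the groups of a gene that passed are said not to overlap, this describes the libraries tested and is no separate result. 31 of the 34 genes rose, against 23.5% of the 17162 genes tested, and 0 fell, against 23.2% (46.6% of genes tested in either direction). The 3 that did not pass were TM7SF2, ELOVL6 and SREBF1. 18 genes passed a log2FC of 1, a doubling, against 5.68% of genes tested, and 0 fell by as much, against 6.62%. The sterol arm had 19 of 20 higher with a median log2FC of 0.93, the fatty acid arm 10 of 11 with a median of 1.53, and the median over all genes tested was -0.04.

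**Figure D2:**
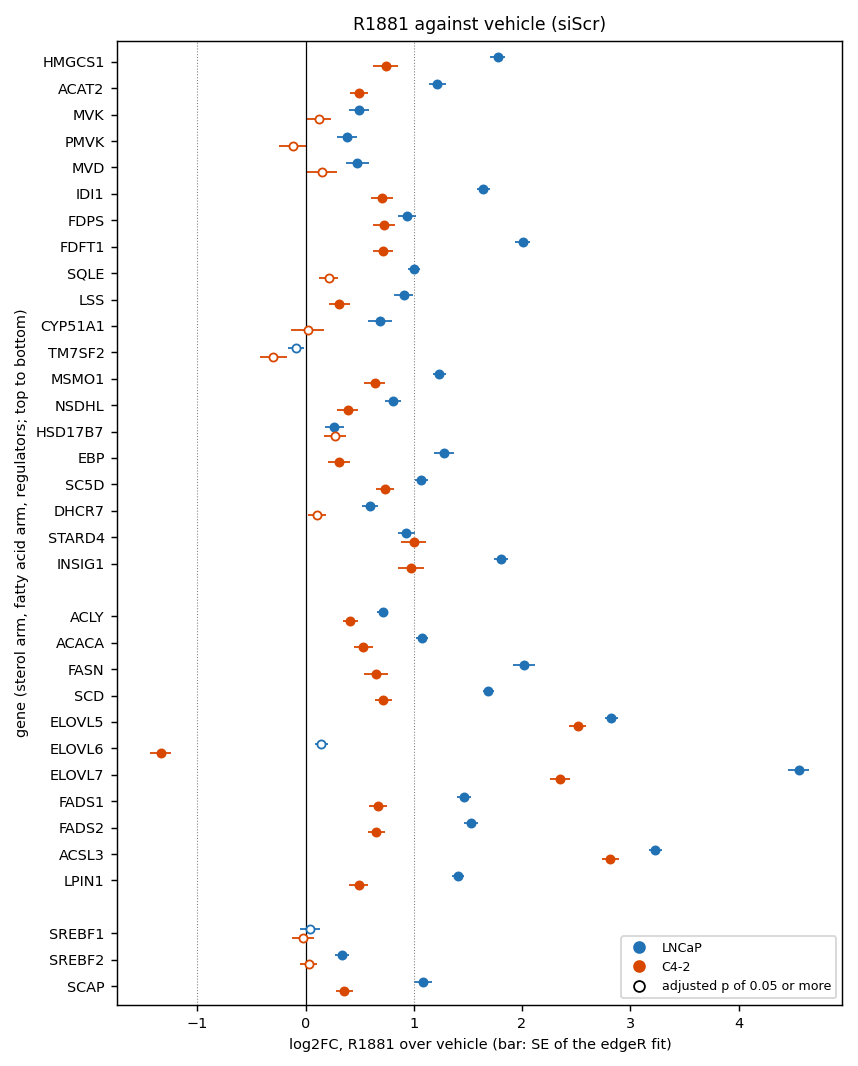
log2FC of R1881 over vehicle for each of the 34 genes in LNCaP (blue) and C4-2 (orange), with the SE of the fit as bars. Filled points passed an adjusted p of 0.05 and open points did not. Most genes lie to the right of 0 in both lines, with the orange point to the left of the blue, and ELOVL6 in C4-2 is the only filled point below 0.

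Among the enzymes of the mevalonate pathway, HMGCS1 (ENSG00000112972, chr5:43289395-43313512), the HMG-CoA synthase, read 126, 138 and 122 CPM with vehicle and 427, 429.7 and 481 CPM with R1881 (log2FC 1.77 ± 0.07 (SE), adjusted p = 7.1e-13). IDI1, the isopentenyl diphosphate isomerase, read 91.4, 91.2 and 89.8 CPM and 271, 295 and 295 CPM (log2FC 1.64 ± 0.06 (SE), adjusted p = 3.3e-13). In both genes each R1881 library was above each vehicle library by a wide gap. ACAT2, the acetyl-CoA acetyltransferase of the first step, read 42.3, 46.2 and 53.0 CPM and 103, 115 and 117 CPM (log2FC 1.22 ± 0.08 (SE), adjusted p = 1.5e-09). The kinases MVK and PMVK and the decarboxylase MVD rose less, with log2FC of 0.49 ± 0.09, 0.38 ± 0.09 and 0.48 ± 0.11 (± SE). FDPS, the farnesyl diphosphate synthase, rose by 0.93 ± 0.08.

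At the branch to sterols, FDFT1, the squalene synthase, had the largest rise of the sterol arm. It read 245, 249 and 251 CPM with vehicle and 932, 1032 and 1068 CPM with R1881 (log2FC 2.01 ± 0.07 (SE), adjusted p = 1.3e-13). SQLE, the squalene epoxidase, read 64.1, 64.7 and 66.6 CPM and 126, 134 and 136 CPM, a log2FC of 1.00 ± 0.06 that lay just under 1 before rounding. The groups of neither gene overlapped. Of the steps after lanosterol, MSMO1, the methylsterol monooxygenase, read 76.5, 81.4 and 81.0 CPM and 179, 187 and 203 CPM (log2FC 1.24 ± 0.06 (SE), adjusted p = 2.7e-11). EBP, the sterol isomerase, read 37.3, 36.5 and 41.4 CPM and 91.0, 98.9 and 92.9 CPM (log2FC 1.28 ± 0.09 (SE), adjusted p = 3.6e-09). SC5D, the sterol desaturase, read 97.7, 107 and 97.8 CPM and 204, 227 and 213 CPM (log2FC 1.07 ± 0.06 (SE), adjusted p = 1.5e-10). All 3 of these enzymes doubled or more, and their R1881 libraries lay close together.

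The lanosterol synthase LSS (0.91 ± 0.09), the demethylase CYP51A1 (0.69 ± 0.11), the dehydrogenase NSDHL (0.81 ± 0.08) and the reductase DHCR7 (0.60 ± 0.07) rose by less than a doubling in log2FC ± SE. HSD17B7, a sterol ketoreductase, rose by 0.26 ± 0.09 with an adjusted p of 0.022 that was lost when any of 4 single libraries was left out, and its log2FC was 0.19 (adjusted p = 0.079) once each library's trend with GC content was removed. TM7SF2, a sterol reductase, did not pass, at 164 ± 12.7 CPM with vehicle and 156 ± 10.5 CPM with R1881 (mean ± SD, n = 3; log2FC -0.09 ± 0.07). STARD4, which carries cholesterol between membranes, had a log2FC of 0.93 ± 0.08 and an adjusted p of 4.3e-08. INSIG1 (ENSG00000186480, chr7:155297776-155310235), the sterol-sensing brake on SREBP processing, read 122, 119.8 and 111 CPM and 387, 404 and 455 CPM (log2FC 1.81 ± 0.07 (SE), adjusted p = 4.4e-13). All 3 R1881 libraries lay above all vehicle libraries.

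In the fatty acid arm, ACLY, which makes cytosolic acetyl-CoA from citrate, rose by a log2FC of 0.71 ± 0.05. ACACA, the acetyl-CoA carboxylase, read 665, 712 and 633 CPM with vehicle and 1429.8, 1449.8 and 1408 CPM with R1881 (log2FC 1.07 ± 0.06 (SE), adjusted p = 5e-11). FASN (ENSG00000169710, chr17:82078333-82098332) read 1758, 1376 and 1645 CPM and 7355, 5665 and 6575 CPM (log2FC 2.02 ± 0.10 (SE), adjusted p = 2.4e-11). The R1881 libraries of FASN spread more widely than those of ACACA, and still lay far above the vehicle libraries. SCD (ENSG00000099194, chr10:100347124-100364834) read 1065, 1101 and 1063 CPM and 3310.1, 3495 and 3740 CPM (log2FC 1.69 ± 0.05 (SE), adjusted p = 7.8e-14).

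The elongases behaved differently from each other. ELOVL7 (ENSG00000164181, chr5:60751791-60844389) read 9.10, 9.32 and 6.43 CPM with vehicle and 197, 196 and 196 CPM with R1881 (log2FC 4.56 ± 0.10 (SE), adjusted p = 4e-16), the largest log2FC of the 34 genes. ELOVL5 (ENSG00000012660, chr6:53267398-53349179), which extends polyunsaturated chains, read 269, 285 and 272 CPM and 1884, 2161 and 1883 CPM (log2FC 2.82 ± 0.06 (SE), adjusted p = 3.3e-16). ELOVL6 (ENSG00000170522, chr4:110045846-110199199), which extends palmitate, read 107, 122 and 109 CPM and 121, 130.3 and 128 CPM and did not pass (log2FC 0.14 ± 0.06 (SE), adjusted p = 0.068), although it did with RLE factors and with DESeq2. The delta-5 desaturase FADS1 read 82.96, 90.5 and 91.2 CPM and 230.3, 244 and 265 CPM (log2FC 1.46 ± 0.06 (SE), adjusted p = 3.6e-12). The delta-6 desaturase FADS2 read 355, 322 and 351 CPM and 1035, 911 and 1052 CPM (log2FC 1.53 ± 0.07 (SE), adjusted p = 7.4e-12). These neighbouring genes on chromosome 11 rose by much the same factor. ACSL3 (ENSG00000123983, chr2:222860934-222944639), which activates long chain acids at lipid droplets, read 168, 180.4 and 171 CPM and 1533, 1787 and 1623 CPM (log2FC 3.23 ± 0.06 (SE), adjusted p = 8e-17). LPIN1, a phosphatidate phosphatase, read 145, 145 and 140.1 CPM and 387, 372 and 396 CPM (log2FC 1.41 ± 0.06 (SE), adjusted p = 1.1e-12).

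Of the regulators, the genes for the SREBP factors moved little. SREBF1 was at 291 ± 34.7 CPM with vehicle and 303 ± 36.1 CPM with R1881 and did not pass (log2FC 0.04 ± 0.09), though with the GC trend removed it was 0.20 with an adjusted p of 0.0012. SREBF2 went from 292 ± 12.5 to 372 ± 27.5 CPM (log2FC 0.34 ± 0.07 (SE), adjusted p = 0.00053). SCAP, the escort, read 112, 92.6 and 104 CPM and 247, 204 and 208 CPM (log2FC 1.09 ± 0.08 (SE), adjusted p = 1.3e-08), and each R1881 library was above each vehicle library. Known androgen targets measured in the same libraries rose by a log2FC of 3.70 ± 0.07 (KLK3), 4.13 ± 0.07 (TMPRSS2) and 4.24 ± 0.06 (FKBP5).

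The same comparison in C4-2 found 23 of the 34 genes higher with R1881, against 17.1% of the 16965 genes tested, and 1 lower, against 15.7% (32.8% in either direction). Only 3 rose by a log2FC of 1 or more (4.29% of genes tested) and 1 fell by as much (4.78%, and 9.07% in either direction). The sterol arm had 12 of 20 higher with a median log2FC of 0.35, and the fatty acid arm 10 of 11 with a median of 0.65, against -0.02 over all genes. Without the shallow vehicle library the number of the 34 that passed was 25 in place of 24, and 6 in place of 4 reached a log2FC of 1.

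The largest rises were those of 3 fatty acid genes. ACSL3 read 285, 308 and 321 CPM with vehicle and 2225, 2014 and 2209 CPM with R1881 in C4-2 (log2FC 2.82 ± 0.08 (SE), adjusted p = 3.9e-12). ELOVL5 read 242, 269 and 259.9 CPM and 1578, 1372 and 1462 CPM (log2FC 2.51 ± 0.08 (SE), adjusted p = 9.9e-12). ELOVL7 read 23.2, 23.1 and 23.9 CPM and 122, 113 and 123 CPM (log2FC 2.35 ± 0.09 (SE), adjusted p = 6.3e-11). None of their groups overlapped. ELOVL6 read 107, 106 and 112 CPM with vehicle and 39.6, 46.3 and 42.8 CPM with R1881 (log2FC -1.34 ± 0.10 (SE), adjusted p = 8.8e-08), so the palmitate elongase fell by more than a halving while ELOVL5 and ELOVL7 rose. ELOVL6 stayed past the threshold whichever library was left out.

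The rest of the fatty acid arm rose by less than a doubling in C4-2. FASN read 1996, 2229 and 1745 CPM and 2801, 3438 and 3149 CPM (log2FC 0.65 ± 0.11 (SE), adjusted p = 0.00053). SCD read 1071, 1273 and 1224 CPM and 1887, 2119 and 1882 CPM (log2FC 0.72 ± 0.08 (SE), adjusted p = 9.6e-06). Both genes kept their vehicle and R1881 libraries apart. ACACA read 747, 823 and 730.4 CPM and 1009.9, 1159 and 1167 CPM (log2FC 0.53 ± 0.09). FADS1 read 246, 273 and 292 CPM and 411, 439 and 437 CPM (log2FC 0.67 ± 0.08). FADS2 read 1284, 1359 and 1255 CPM and 1980.2, 2134 and 2039 CPM (log2FC 0.65 ± 0.07), and both desaturase genes again moved by a like factor. LPIN1 read 96.6, 109.7 and 108 CPM and 141, 156 and 145 CPM (log2FC 0.49 ± 0.09). ACLY had a log2FC of 0.41 ± 0.07. All of these passed.

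In the sterol arm, STARD4 (ENSG00000164211, chr5:111496033-111512590) rose in C4-2 from 28.2 ± 4.61 to 54.5 ± 3.14 CPM (log2FC 1.00 ± 0.11 (SE), adjusted p = 1.1e-05), a log2FC just under 1 before rounding. INSIG1 read 288, 323 and 407 CPM with vehicle and 639.8, 755 and 601 CPM with R1881 (log2FC 0.98 ± 0.12 (SE), adjusted p = 2.4e-05), and the third vehicle library, the shallow one, was the highest of its group. HMGCS1 read 74.1, 79.8 and 86.0 CPM and 116, 158 and 124 CPM (log2FC 0.74 ± 0.12 (SE), adjusted p = 0.00024). FDFT1 read 234, 239.7 and 293 CPM and 410.4, 442 and 402 CPM (log2FC 0.71 ± 0.09). For each of these genes the groups did not overlap. IDI1 read 105, 106 and 130.2 CPM and 198, 181 and 175 CPM (log2FC 0.71 ± 0.10). SC5D read 76.9, 74.8 and 89.2 CPM and 139, 125 and 133 CPM (log2FC 0.73 ± 0.09). MSMO1 read 52.2, 58.5 and 65.3 CPM and 92.6, 93.5 and 84.8 CPM (log2FC 0.64 ± 0.10), like the other genes of this paragraph past the threshold whichever library was left out.

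FDPS (0.72 ± 0.10) and NSDHL (0.39 ± 0.10) also rose in log2FC ± SE, NSDHL with a call that was lost without vehicle library 2. ACAT2 read 49.5, 43.8 and 42.5 CPM and 67.6, 63.9 and 61.4 CPM (log2FC 0.49 ± 0.08). EBP read 84.1, 80.1 and 99.4 CPM and 116, 108 and 98.9 CPM (log2FC 0.31 ± 0.10), with vehicle library 3 inside the range of the R1881 group. EBP and LSS (0.31 ± 0.10) lost their call when any of 4 single libraries was left out. The genes that did not pass were MVK (0.12 ± 0.11), PMVK (-0.12 ± 0.12), MVD (0.15 ± 0.14), CYP51A1 (0.02 ± 0.15), TM7SF2 (-0.30 ± 0.12, which passed as lower without the shallow vehicle library), HSD17B7 (0.27 ± 0.10) and DHCR7 (0.11 ± 0.09). SQLE was also among them, at 44.2, 48.2 and 51.0 CPM with vehicle and 54.6, 55.7 and 54.7 CPM with R1881 (log2FC 0.21 ± 0.08 (SE), adjusted p = 0.067), although its R1881 libraries all lay above its vehicle libraries. Among the regulators, SCAP rose, at 109, 113 and 109 CPM and 138, 141 and 146 CPM (log2FC 0.36 ± 0.08 (SE), adjusted p = 0.0031), while SREBF1 (-0.02 ± 0.10) and SREBF2 (0.03 ± 0.08) did not pass. With the GC trend removed, MVK, MVD, DHCR7 and SREBF1 passed as well, SREBF1 with the opposite sign (0.25).

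**Figure D3:**
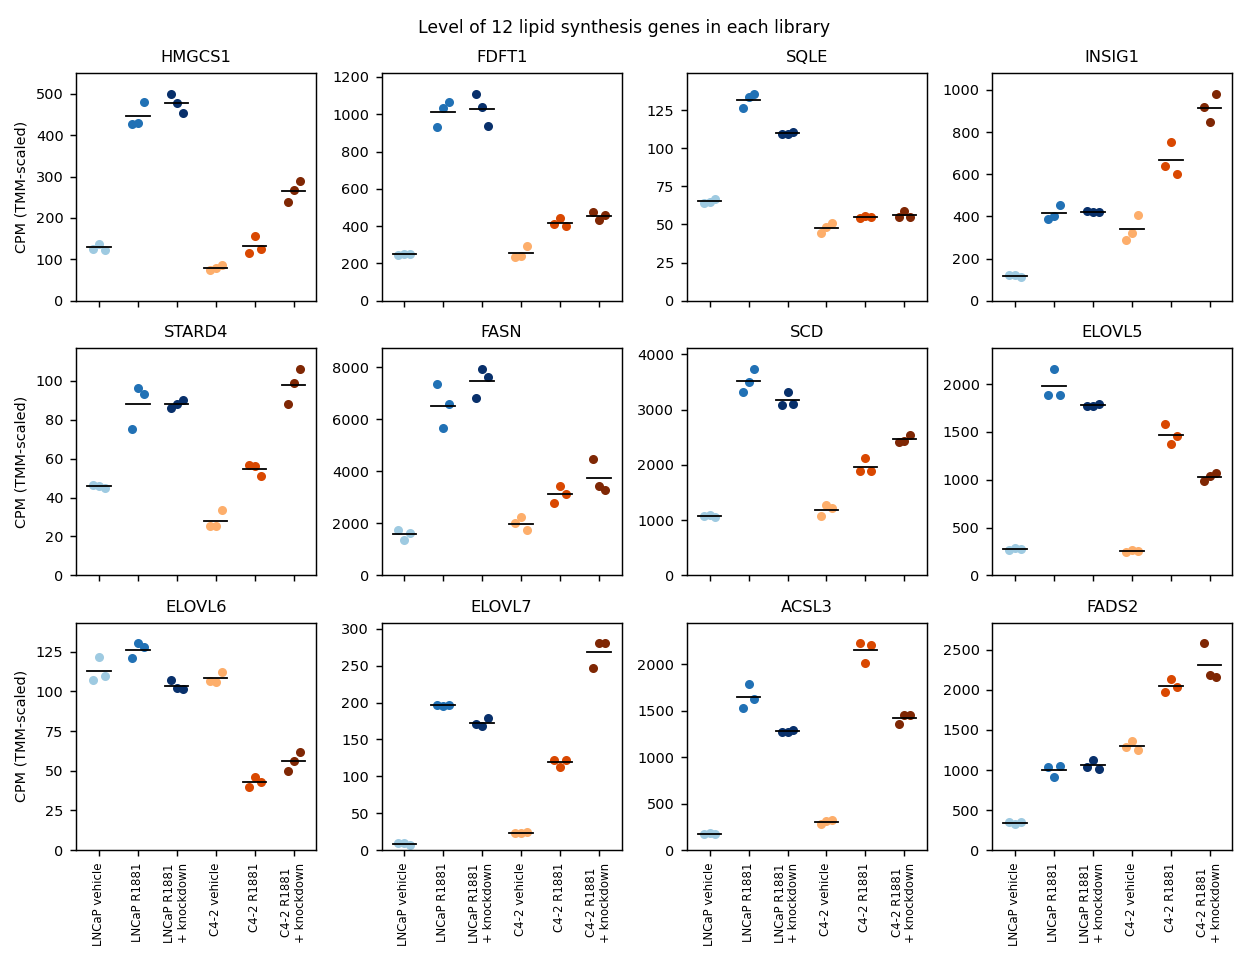
CPM of 12 of the genes in each of the 18 libraries, each panel with its own axis from 0. Points are libraries and lines are group means of 3, so that the low vehicle levels of ELOVL7, the fall of ELOVL6 with R1881 in C4-2 alone among the siScr comparisons, and the rise of HMGCS1 and STARD4 with the dual knockdown in C4-2 can be seen.

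The difference between the R1881 responses of the lines was tested as an interaction over all 18 libraries. 26 of the 34 genes responded lower in C4-2 than in LNCaP, against 7.95% of the 18684 genes tested, and 0 responded higher, against 6.05%. The sterol arm held 14 of these and the fatty acid arm 11 of its 11, and the median difference in log2FC was -0.56 and -0.89, against -0.000589 over all genes. 5 genes differed by a log2 value of 1 or more (2.33% of genes tested, and 4.32% in either direction). These were ELOVL7 (log2FC -2.22 ± 0.13 (SE), adjusted p = 1.3e-10), ELOVL6 (-1.495 ± 0.11), FASN (-1.38 ± 0.17), FDFT1 (-1.30 ± 0.11) and HMGCS1 (-1.05 ± 0.14). STARD4, whose response differed by 0.06 ± 0.14 (adjusted p = 0.83), had a like log2FC in both lines (0.93 ± 0.08 in LNCaP and 1.00 ± 0.11 in C4-2). The same interaction for known androgen targets was -1.04 ± 0.12 for TMPRSS2 and -0.99 ± 0.09 for FKBP5, and for KLK3 0.44 ± 0.14 (adjusted p = 0.034), so smaller responses in C4-2 were also measured outside lipid synthesis, and the part of a general difference in the lipid genes was not tested.

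The levels of the lines were compared directly in each state. These comparisons share their libraries with the interaction and with the R1881 comparisons. With vehicle, 16 of the 34 genes were higher in C4-2 (29.4% of genes tested) and 8 lower (29.5%, and 58.9% in either direction). 5 were higher by a log2FC of 1 or more (11.1%) and 0 lower (13.1%). The 5 were FADS2 (log2FC 1.92 ± 0.08 (SE), adjusted p = 5.6e-15), FADS1 (1.61 ± 0.07), INSIG1 (1.52 ± 0.10), ELOVL7 (1.496 ± 0.11) and EBP (1.17 ± 0.11). Each of their C4-2 vehicle libraries, given above, lay above each LNCaP vehicle library. The genes lower in C4-2 were HMGCS1 (-0.70 ± 0.10), STARD4 (-0.76 ± 0.10), MSMO1 (-0.47 ± 0.08), SQLE (-0.46 ± 0.06), SC5D (-0.35 ± 0.07), HSD17B7 (-0.27 ± 0.09), LPIN1 (-0.46 ± 0.07) and SREBF2 (-0.46 ± 0.08). SREBF1 was higher in C4-2, at 482 ± 25.5 CPM against 291 ± 34.7 CPM (log2FC 0.73 ± 0.11 (SE), adjusted p = 5.6e-06), so the genes for the SREBP factors differed between the lines in opposite directions.

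Smaller differences that passed with vehicle, all higher in C4-2, were those of CYP51A1 (0.87 ± 0.15), ACSL3 (0.81 ± 0.07), DHCR7 (0.73 ± 0.08), NSDHL (0.50 ± 0.09), LSS (0.44 ± 0.10), FASN (0.32 ± 0.12), IDI1 (0.31 ± 0.08), FDPS (0.27 ± 0.10), ACACA (0.20 ± 0.07) and ACLY (0.15 ± 0.06). The log2FC of FASN was -0.00181 (adjusted p = 0.99) with the GC trend removed, and the calls of FDPS, ACLY and HSD17B7 were lost there as well. Those of FASN, FDPS, ACACA, ACLY and HSD17B7 were each also lost without one or another single library. Genes that did not pass with vehicle included SCD, ELOVL5, ELOVL6, FDFT1 and ACAT2, with log2FC between -0.10 and 0.14.

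With R1881 the balance was the other way. 6 of the 34 genes were higher in C4-2 (28.6% of genes tested) and 21 were lower (29.7%, and 58.3% in either direction), and 7 were lower by a log2FC of 1 or more (13%). These were HMGCS1 (log2FC -1.75 ± 0.10 (SE), adjusted p = 1.4e-12), ELOVL6 (-1.56 ± 0.08), LPIN1 (-1.39 ± 0.07), FDFT1 (-1.27 ± 0.08), SQLE (-1.26 ± 0.06), MSMO1 (-1.07 ± 0.08) and FASN (-1.06 ± 0.12). FADS2 remained higher in C4-2 (log2FC 1.04 ± 0.07 (SE), adjusted p = 9.7e-11), as did FADS1 (0.80 ± 0.07), INSIG1 (0.68 ± 0.10), SREBF1 (0.65 ± 0.11), ACSL3 (0.38 ± 0.06) and DHCR7 (0.23 ± 0.08). ELOVL7, higher in C4-2 with vehicle, was lower there with R1881 (log2FC -0.72 ± 0.08 (SE), adjusted p = 8.6e-08). SCD (-0.84 ± 0.07), ACAT2 (-0.79 ± 0.08), SREBF2 (-0.78 ± 0.08) and SCAP (-0.63 ± 0.08) were also lower in C4-2. The call of DHCR7, and that of HSD17B7 among the lower genes, were lost with the GC trend removed. Those of DHCR7, HSD17B7, ACLY and MVD were each lost without one or another single library. The median log2FC was -0.31 for the sterol arm and -0.43 for the fatty acid arm, against 0.04 and 0.20 with vehicle.

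**Figure D4:**
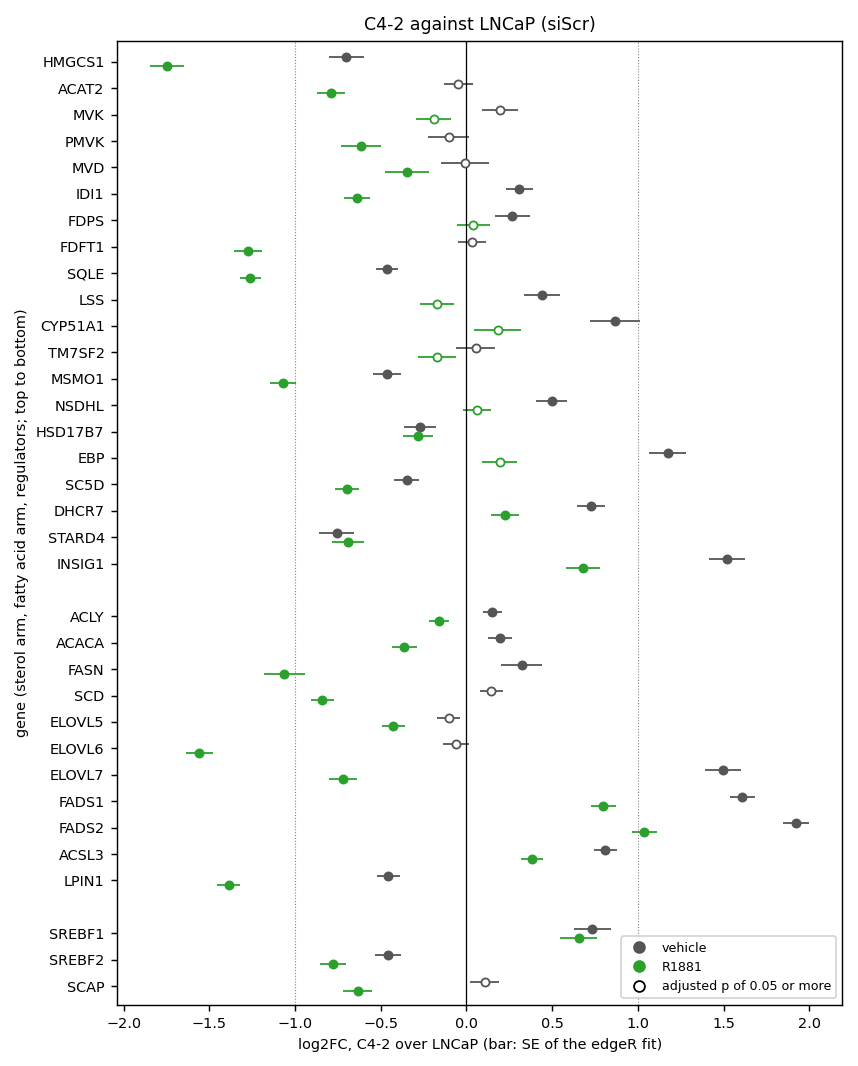
log2FC of C4-2 over LNCaP for each of the 34 genes with vehicle (grey) and with R1881 (green), both with siScr, and the SE of the fit as bars. Filled points passed an adjusted p of 0.05. FADS1, FADS2, INSIG1 and SREBF1 lie to the right of 0 in both states, HMGCS1, SQLE and MSMO1 to the left in both, and ELOVL7 crosses from right to left.

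The dual knockdown was compared with siScr, both with R1881, to ask whether loss of the demethylases alters the androgen-treated state. In LNCaP 5 of the 34 genes were higher (8.27% of genes tested) and 4 lower (5.89%), and 0 rose and 0 fell by a log2FC of 1 (0.157% and 0.128%). The genes lower were ACSL3, ACACA, ELOVL6 and SQLE. ACSL3 read 1273, 1273 and 1286 CPM with the knockdown (log2FC -0.35 ± 0.06 (SE), adjusted p = 0.002), below its siScr libraries given above. ACACA read 1122, 1219 and 1147 CPM (log2FC -0.28 ± 0.05 (SE), adjusted p = 0.0055). SQLE read 109.6, 109 and 111 CPM (log2FC -0.24 ± 0.06 (SE), adjusted p = 0.01) and ELOVL6 107, 102 and 102 CPM (log2FC -0.27 ± 0.06 (SE), adjusted p = 0.012). The calls of ACSL3 and ACACA held whichever library was left out, those of SQLE and ELOVL6 were lost without any of 2 and 3 single libraries.

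The 5 genes higher in LNCaP were PMVK (0.38 ± 0.09), SREBF1 (0.36 ± 0.09), MVD (0.35 ± 0.10), MVK (0.32 ± 0.09) and TM7SF2 (0.23 ± 0.07), each a log2FC ± SE with adjusted p between 0.011 and 0.04. Their transcripts had a GC content of 58.2% to 64.2%, against 38.1% to 48.7% in the 4 genes that were lower. With each library's trend with GC content removed, none of the 5 passed and the log2FC of MVD and TM7SF2 changed sign, to -0.01 and -0.14. The 34 genes then held 2 higher (HMGCS1 and CYP51A1) and 6 lower, in place of 5 and 4. Of all 17162 genes tested, 461 were then higher and 839 lower, in place of 1420 and 1011. With all 18 libraries in 1 fit, none were higher and the same 4 were lower. Leaving out R1881 library 2 or 3, or knockdown library 2, left 3 calls in place of 9, leaving out knockdown library 1 left 5, and leaving out R1881 library 1 gave 14.

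The remaining LNCaP genes did not pass with the knockdown, and their R1881-raised levels were read there again. HMGCS1 read 499.8, 479 and 454 CPM, IDI1 264, 245 and 246 CPM and FDFT1 1109, 1038 and 938 CPM. ACAT2 read 117, 108 and 104 CPM, MSMO1 196, 187 and 188 CPM, EBP 123, 104 and 93.2 CPM and SC5D 205, 197 and 199.6 CPM. INSIG1 read 424, 421 and 419 CPM and SCAP 209, 226 and 210 CPM. For all 9 the knockdown libraries lay above every vehicle library. R1881 had at least doubled these genes over the same vehicle libraries, so this separation is no separate result. In the fatty acid arm, FASN read 6818, 7954 and 7620.1 CPM, SCD 3081, 3312 and 3096 CPM and ELOVL5 1775, 1774 and 1791 CPM. ELOVL7 read 171, 168 and 179 CPM, FADS1 224, 231 and 221 CPM, FADS2 1032, 1131 and 1018 CPM and LPIN1 345, 361 and 369 CPM. The log2FC of these 7 genes against siScr ranged from -0.16 (ELOVL7, adjusted p = 0.16) to 0.21 (FASN, adjusted p = 0.15). FASN changed sign with the GC trend removed (-0.20, adjusted p = 0.015). The median log2FC was 0.11 for the sterol arm and -0.13 for the fatty acid arm, and 0.000985 over all genes.

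In C4-2 the dual knockdown raised 12 of the 34 genes (12.7% of genes tested) and lowered 4 (10.8%), and 1 gene, ELOVL7, rose and 0 fell by a log2FC of 1 (2.5% and 1.44%, and 3.94% in either direction). The share of the 34 that rose was thus well above that of all genes tested, and the share that fell was close to it. ELOVL7 read 247, 280.2 and 280.3 CPM with the knockdown (log2FC 1.17 ± 0.08 (SE), adjusted p = 5.9e-07), above its siScr libraries given above and above every LNCaP library. HMGCS1 read 238, 268 and 289 CPM (log2FC 0.99 ± 0.11 (SE), adjusted p = 3.6e-05), near to double its siScr level. STARD4 went from 54.5 ± 3.14 to 97.8 ± 9.26 CPM (log2FC 0.84 ± 0.11 (SE), adjusted p = 7.4e-05). SREBF1 went from 477 ± 5.39 to 784 ± 151 CPM (log2FC 0.71 ± 0.10 (SE), adjusted p = 0.00019), and its first knockdown library was the highest of the 3 by a gap. SREBF2 went from 217 ± 10.7 to 291 ± 28.5 CPM (log2FC 0.42 ± 0.08 (SE), adjusted p = 0.002). Both genes for the SREBP factors therefore rose with the knockdown in C4-2.

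Other genes that rose in C4-2 were INSIG1, at 917, 846 and 981 CPM (log2FC 0.45 ± 0.12 (SE), adjusted p = 0.013), and SCD, at 2413, 2433 and 2538 CPM (log2FC 0.32 ± 0.08 (SE), adjusted p = 0.01). FADS1 read 529, 538 and 587 CPM (log2FC 0.36 ± 0.08 (SE), adjusted p = 0.0062). MSMO1 read 109.8, 112 and 128 CPM (log2FC 0.36 ± 0.09 (SE), adjusted p = 0.011). In each of these 4 genes the knockdown libraries lay above the siScr libraries. They were picked by a test on the same libraries, so this separation is no separate result. ELOVL6 read 50.1, 56.2 and 62.0 CPM (log2FC 0.38 ± 0.10 (SE), adjusted p = 0.01), still below its vehicle libraries. LPIN1 read 165, 181 and 192 CPM (log2FC 0.28 ± 0.09 (SE), adjusted p = 0.028), and LSS had a log2FC of 0.30 ± 0.10 (adjusted p = 0.038) that was 0.19 without knockdown library 1. The calls of LSS, LPIN1, INSIG1, MSMO1, ELOVL6 and SCD were each lost without some single library, while those of ELOVL7, HMGCS1, STARD4, SREBF1, SREBF2 and FADS1 were not.

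The 4 genes lower with the knockdown in C4-2 were ACSL3, ELOVL5, SCAP and TM7SF2. ACSL3 read 1355, 1451 and 1456 CPM (log2FC -0.60 ± 0.08 (SE), adjusted p = 7.5e-05). ELOVL5 read 991, 1040 and 1067 CPM (log2FC -0.51 ± 0.08 (SE), adjusted p = 0.00026). Both lay below every siScr R1881 library and above every vehicle library. SCAP read 118, 102 and 96.2 CPM (log2FC -0.43 ± 0.08 (SE), adjusted p = 0.0012), which overlapped its vehicle libraries. TM7SF2 went from 138 ± 2.93 to 84.2 ± 21.0 CPM (log2FC -0.72 ± 0.12 (SE), adjusted p = 0.00076). All 4 held whichever library was left out. ACSL3 was thus lower with the knockdown in both lines, while FKBP5 fell in both lines (log2FC -0.29 ± 0.05 and -0.32 ± 0.07) and TMPRSS2 did not pass in either line (0.09 ± 0.06 and 0.20 ± 0.09). The response of KLK3 to the knockdown is not reported here.

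The genes of the named set that did not pass in C4-2 read as follows with the knockdown. FASN read 4475, 3428 and 3286 CPM, with its first library above the others, ACACA 987, 1148 and 1091 CPM and FADS2 2583, 2192 and 2165 CPM. IDI1 read 161, 171 and 188 CPM, FDFT1 475, 433 and 461 CPM and SQLE 55.0, 58.8 and 54.8 CPM. ACAT2 read 71.4, 67.8 and 70.8 CPM, EBP 143, 116 and 119 CPM and SC5D 145, 148 and 156 CPM. Their log2FC lay between -0.10 (IDI1) and 0.25 (FASN). MVK (0.07 ± 0.11), PMVK (0.05 ± 0.12), MVD (0.10 ± 0.14), FDPS (0.13 ± 0.10), CYP51A1 (0.32 ± 0.14), DHCR7 (-0.05 ± 0.08), HSD17B7 (-0.000162 ± 0.10), NSDHL (-0.27 ± 0.09) and ACLY (-0.07 ± 0.07) did not pass either. The median log2FC was 0.12 for the sterol arm, 0.25 for the fatty acid arm and 0.01 over all genes.

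**Figure D5:**
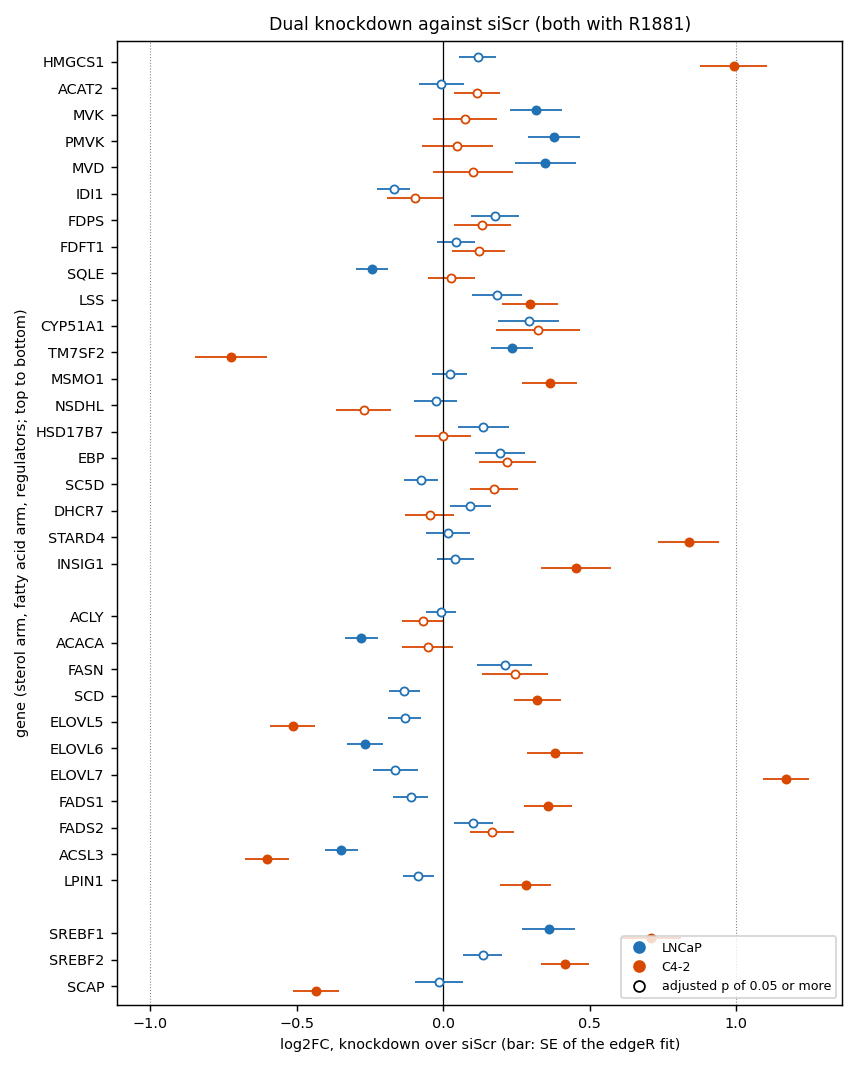
log2FC of the dual knockdown over siScr, both with R1881, for each of the 34 genes in LNCaP (blue) and C4-2 (orange), with the SE of the fit as bars and filled points past an adjusted p of 0.05. The axis is much narrower than for R1881. HMGCS1, STARD4, ELOVL7, SREBF1 and SREBF2 stand to the right in C4-2, and ACSL3 lies to the left in both lines.

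Tested as an interaction, the knockdown response was higher in C4-2 than in LNCaP for 9 of the 34 genes (6.97% of genes tested) and lower for 3 (3.88%), and 1 differed by a log2 value of 1 (1.26%, and 1.99% in either direction). The largest differences were those of ELOVL7 (log2FC 1.36 ± 0.11 (SE), adjusted p = 1.3e-07), HMGCS1 (0.90 ± 0.13), STARD4 (0.84 ± 0.13) and, in the other direction, TM7SF2 (-0.93 ± 0.16). The differences for SREBF1 (0.37 ± 0.15, adjusted p = 0.12) and SREBF2 (0.31 ± 0.11, adjusted p = 0.071) did not pass, so their rise in C4-2 was not shown to differ from LNCaP, although both passed with the GC trend removed. KDM1A and KDM7A themselves fell further in C4-2, with interaction values of -2.04 ± 0.12 and -1.56 ± 0.14, and the part of knockdown depth in these differences was not tested.

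Beside the 34, 26 other sterol genes (uptake, efflux, storage, transport and sterol sensing) and 30 other fatty acid genes (activation, elongation, desaturation and glyceride synthesis) were followed. In LNCaP R1881 raised 13 and lowered 5 of the 25 sterol genes tested, with a median log2FC of 0.21, and raised 12 and lowered 6 of 29 fatty acid genes, with a median of 0.20. Of all genes tested 23.5% rose and 23.2% fell there, so that the share of each list that fell was near that of all genes. ABCA1, which exports cholesterol from the cell, went from 11.8 ± 0.936 to 0.367 ± 0.195 CPM (log2FC -4.93 ± 0.33 (SE), adjusted p = 1.9e-09). NPC1, which releases cholesterol from lysosomes, rose (log2FC 1.93 ± 0.06 (SE), adjusted p = 7.3e-14), as did the cholesterol acyltransferase SOAT1 (1.20 ± 0.07). Of the fatty acid genes ELOVL2 (1.90 ± 0.33) and the acetyl-CoA synthetase ACSS2 (1.32 ± 0.07) rose and the desaturase SCD5 (log2FC -1.84 ± 0.22 (SE), adjusted p = 2.1e-06) fell.

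In C4-2 R1881 raised 7 and lowered 5 of 25 other sterol genes and raised 7 and lowered 2 of 26 other fatty acid genes, beside 17.1% higher and 15.7% lower of all genes tested. ABCA1 went from 9.10 ± 1.21 to 1.42 ± 0.409 CPM (log2FC -2.65 ± 0.25 (SE), adjusted p = 1.3e-06), and ABCG1, a second sterol exporter, from 24.4 ± 3.75 to 6.32 ± 0.890 CPM (log2FC -1.99 ± 0.15 (SE), adjusted p = 1.4e-07). SOAT1 (0.84 ± 0.09), ACSL1 (0.84 ± 0.08) and HACD2 (0.72 ± 0.09) rose and ACSL5 (-1.63 ± 0.31) fell. The difference between the lines passed for ABCA1 (2.27 ± 0.48), NPC1 (-1.52 ± 0.10), ABCG1 (-0.81 ± 0.23), ACSL5 (-1.68 ± 0.41), ACSS2 (-0.98 ± 0.13) and the malic enzyme ME1 (-0.86 ± 0.09), given as C4-2 minus LNCaP. With the dual knockdown, 4 of 25 other sterol genes were higher and 2 lower in LNCaP (of all genes tested 8.27% and 5.89%), NR1H2 the most (0.56 ± 0.09), followed by GRAMD1A (0.28 ± 0.09). Of 29 other fatty acid genes 4 were higher and 3 lower in LNCaP, led by AGPAT2 (0.58 ± 0.14), LPIN3 (0.40 ± 0.10) and SLC25A1 (0.39 ± 0.08). NR1H2, GRAMD1A, AGPAT2, LPIN3 and SLC25A1 had GC fractions from 0.59 (LPIN3) to 0.66 (AGPAT2). PMVK, SREBF1, MVD, MVK and TM7SF2, of like GC content, lost their calls in LNCaP with the GC trend removed. Of all genes tested, 461 were then higher with the knockdown in LNCaP, in place of 1420. Values with that trend removed are not given here for the other lipid genes. In C4-2 3 of 25 other sterol genes were higher and 2 lower, no larger shares than the 12.7% and 10.8% of all genes tested, with SOAT1 at 0.90 ± 0.09 and NPC1 at -0.26 ± 0.08. Of 26 other fatty acid genes 4 were higher and 3 lower there, shares near those of all genes, with the arachidonate-activating synthetase ACSL4 at 1.56 ± 0.18, the triglyceride enzyme DGAT2 at -0.73 ± 0.09 and ME1 at 0.52 ± 0.07.

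Between the lines with vehicle, NPC2 (1.02 ± 0.09), TMEM97 (0.98 ± 0.07) and ABCG1 (0.94 ± 0.15) were higher in C4-2, ACSL5 (1.65 ± 0.28) was higher and SCD5 and ACSL4 (-1.24 ± 0.20) were lower. SCD5 was at 6.25 ± 0.557 CPM in LNCaP and 0.286 ± 0.259 CPM in C4-2, and at 0 in all 3 C4-2 libraries with R1881, so no fold is given. With R1881, ABCA1 was higher in C4-2 (1.87 ± 0.40), and NPC1 (-1.55 ± 0.07), ERLIN2 (-1.04 ± 0.07), ELOVL2 (-1.37 ± 0.35) and ACSL4 (-0.97 ± 0.17) were lower. Other lipid genes whose knockdown responses differed between the lines included SOAT1 (0.86 ± 0.11), MBTPS1 (0.28 ± 0.08), ACSL4 (1.64 ± 0.24) and DGAT2 (-0.81 ± 0.11).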

How the data were processed

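RNA Seq libraries were made by poly(A) capture and sequenced as read pairs. Per the labels and the study's methods, the authors trimmed reads with Trim Galore, aligned them to GRCh38 with STAR and assigned them with featureCounts 1.5.0-p1 to Ensembl 83 genes. The deposited values are raw, unnormalised counts of read pairs. Per the file headers, no option for strand, for pairs on several genes or for pairs that map to several places was given, so that a gene and its antisense partner cannot be told apart and pairs on shared bases are lost. Exon lengths in the same files gave FPKM, and gene symbols came from GENCODE 29.

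Counts were tested in R 4.3.3 with edgeR 4.0.16 (TMM factors, filterByExpr, 2-sided quasi-likelihood F-test, Benjamini-Hochberg over all genes tested), with 9 libraries of a line in 1 fit and with all 18 for comparisons between lines. All 34 genes passed the filter in every fit. Per-library values are CPM scaled with TMM over all 18 libraries. The lowest count of any of the 34 genes in a library was 60. Between replicates of a group the chi-square per gene was 2.56 to 18.6 over 18 pairs, more than counting error. No library was thus the same library sequenced again within its group. Libraries of different groups were not compared in this way, and the values do not show that replicates were separate cultures. The study's threshold for differential expression, a log2FC of 1, was used beside the adjusted p alone.

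Alternatives were RLE factors, DESeq2 1.42.0, omission of the filter, a floor of 10 counts per gene and library, replicate number as a block, removal of each library's trend with GC content, other sets of libraries and each library left out. The steps were tested on simulated data. Python 3.11.15 and matplotlib 3.10.9 made tables and figures. Starts and motifs were read from RefSeq and described without a test.

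The genes, arms, lists, motifs and tests were chosen with earlier results of these data known. All 34 genes were to be named. Those past both thresholds in a group comparison were to be given in every library. KDM1A, KDM7A, KLK3, TMPRSS2 and FKBP5 were checks, and of the other lipid genes up to 3 per list and comparison with the largest log2FC among those past the adjusted p and at 1 CPM or more were to be named. 1 such gene is not reported here. With 3 libraries against 3, an exact permutation test cannot go below a p of 0.1, and none was used.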

Additional observations from a re-analysis of the deposited data

Results flagged for a closer look

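The R1881 responses of LNCaP and C4-2 differed past an adjusted p of 0.05 (edgeR interaction test) for 26 genes, all lower in C4-2, and these values are log2 differences, C4-2 minus LNCaP. In the mevalonate and sterol steps they were -1.05 for HMGCS1, -0.74 for ACAT2, -0.51 for PMVK, -0.95 for IDI1, -1.30 for FDFT1, -0.80 for SQLE, -0.61 for LSS, -0.69 for CYP51A1, -0.61 for MSMO1, -0.43 for NSDHL, -0.98 for EBP, -0.35 for SC5D, -0.50 for DHCR7 and -0.84 for INSIG1. In the fatty acid arm they were -0.31 for ACLY, -0.56 for ACACA, -1.38 for FASN, -0.98 for SCD, -0.32 for ELOVL5, -1.495 for ELOVL6, -2.22 for ELOVL7, -0.81 for FADS1, -0.89 for FADS2, -0.43 for ACSL3 and -0.93 for LPIN1. SCAP, the escort of the SREBP factors, differed by -0.74. The calls of PMVK, CYP51A1, ELOVL5, SC5D and NSDHL were each lost without one or another single library (PMVK without any of 10), and those of ACLY, ELOVL5 and SC5D without a filter on low counts.

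The knockdown responses differed for 12 genes. Higher in C4-2 were ELOVL7 (1.36), HMGCS1 (0.90), STARD4 (0.84), ELOVL6 (0.67), FADS1 (0.49), SCD (0.48), LPIN1 (0.39), MSMO1 (0.36) and SQLE (0.30). Lower in C4-2 were TM7SF2 (-0.93), SCAP (-0.40) and ELOVL5 (-0.36). The calls of MSMO1 and SCAP were lost with the GC trend removed, that of SQLE without a filter on low counts, and those of MSMO1, SCAP, SQLE and ELOVL5 each without one or another single library.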

How the results depend on the processing

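Of the 34 genes over 8 comparisons, 5537 of the gene values under an alternative kept their side of the threshold. The called ones among them also kept their direction, which was not asked of genes called in neither fit. With the same sign, 174 lost their call and 123 gained one. Another 14 reversed in sign and had a call in the main fit, the alternative or both. All 14 reversals came with each library's GC trend removed, without and with the replicate block: SREBF1 for R1881 in C4-2 (0.25 and 0.25), MVD (-0.00587 and -0.00501), TM7SF2 (-0.14 and -0.14) and FASN (-0.20 and -0.20) for the knockdown in LNCaP, and TM7SF2 (-0.27 and -0.27), FASN (-0.00181 and -0.00522) and SCAP (-0.18 and -0.18) between the lines with vehicle. The cause was not tested. With all 18 libraries in 1 fit the knockdown in LNCaP called 4 of the 34 genes in place of 9.

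With 1 library left out, the number of the 34 past the adjusted p, and past a log2FC of 1 as well, ranged from 30 to 31 and 18 to 21 for R1881 in LNCaP, 22 to 27 and 4 to 6 for R1881 in C4-2, 3 to 14 and 0 to 0 for the knockdown in LNCaP, 11 to 17 and 1 to 2 for the knockdown in C4-2, 20 to 24 and 5 to 5 between lines with vehicle, 23 to 29 and 7 to 8 with R1881, 23 to 28 and 4 to 7 for the R1881 interaction and 8 to 16 and 1 to 2 for the knockdown interaction. The 0 genes past both thresholds for the knockdown in LNCaP (edgeR) were 0 with DESeq2 too. At the adjusted p alone edgeR called 9 and DESeq2 10, and 18 had an unadjusted edgeR p under 0.05.

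Replicate numbers did not pair the libraries (correlations of same-numbered deviations from -0.338 to 0.278). The highest correlation was between differently numbered libraries, C4-2 vehicle library 3 and LNCaP vehicle library 1 (r 0.407). These were also the libraries with the lowest total counts, and the cause was not tested. With the replicate block the 34 genes gave 31, 25, 10, 17, 25, 27, 26 and 14 calls in the order above, in place of 31, 24, 9, 16, 24, 27, 26 and 12.

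Over all genes, at least 10 counts in every library lowered the genes past both thresholds to 1165 from 2110 for R1881 in LNCaP. For R1881 in C4-2 they became 688 from 1539. For the knockdown in LNCaP and C4-2 they became 19 from 49 and 233 from 669. Between lines with vehicle and R1881 they became 1740 from 4530 and 1620 from 4443. For the R1881 and knockdown interactions they became 385 from 808 and 148 from 371. This floor set aside every gene with fewer than 10 counts in any library, which left 14016 genes tested in place of 17162 for R1881 in LNCaP. The part of each in the lower numbers was not tested. For the knockdown in LNCaP 1420 higher and 1011 lower genes became 527 and 618 with all 18 libraries, 461 and 839 with the GC trend removed, and 311 and 556 with the block as well. A library's depth limits the third C4-2 vehicle library most.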
